A study of Homo sapiens with 6 samples.

Results

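The mitochondrial ribosomal protein genes were taken as every row of the expression table whose symbol is MRPL or MRPS followed by a number and, in a few cases, a letter. The rule found 78 of 17047 genes, 49 with MRPL symbols and 29 with MRPS symbols. All 78 passed the filter on low counts, which kept 12959 genes.

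Mitochondria carry ribosomes of their own, which translate the few messages of the mitochondrial genome into core subunits of the respiratory chain and of ATP synthase. The RNA of these ribosomes is made inside the organelle, whereas every one of their proteins is encoded in the nucleus, made in the cytosol and imported. Some proteins descend from bacterial ribosomal proteins and others were added in the mitochondrial lineage. MRPL genes are named for the large subunit, which forms peptide bonds, and MRPS genes for the small subunit, which reads the message. Names and structures disagree for a few: MRPS30 and MRPS18A sit in the large subunit of the human mitoribosome, and MRPS36 is now known as a part of the 2-oxoglutarate dehydrogenase complex. With these placed by structure, the large subunit had 51 genes and the small subunit 26.

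The cells were HCT116, an established human colorectal carcinoma line. Poly(A) RNA was sequenced from 3 libraries of cells with a non-targeting shRNA (shNC) and 3 libraries of cells with shRNA against PLEK2, which encodes a pleckstrin-family protein of the membrane and cytoskeleton. Both groups carried a shRNA introduced by viral transduction, and a single PLEK2 shRNA sequence is listed by the study, so an effect of that hairpin other than on PLEK2 cannot be told apart from the knockdown. The labels do not say whether the libraries came from separate cultures, so p-values measure the spread between these libraries, which may be technical. The comparison asks how gene expression differs in cells with less PLEK2.

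Library totals ranged from 14377532 to 15602732 estimated counts. PLEK2 itself stood at 86.0, 72.6 and 82.9 CPM (counts scaled to library size with TMM factors) with shNC, against 16.0, 32.2 and 34.9 with PLEK2 shRNA, with no overlap. Its log2 fold change was -1.54 ± 0.24 (SE, n = 3 per group), with an adjusted p of 0.684 by edgeR's quasi-likelihood test with Benjamini-Hochberg adjustment and of 0.00106 with the replicate number as a block. The numbers paired the libraries: over 10231 genes, what was left after subtracting group means had correlations of 0.736, 0.561 and 0.562 between same-numbered libraries, so values with this block are given where they differ. The first shNC library differed less from the first PLEK2 shRNA library (mean chi-square per gene 10.7) than from the other shNC libraries (14.3 and 20.2), and so it did from the other PLEK2 shRNA libraries (11.6 and 12.3). Of 7 epithelial markers, 6 were in the table and 5 of these reached 1 FPKM in every library, summing to 5052 to 5805 FPKM with shNC and 4214 to 5372 with PLEK2 shRNA. Leukocyte markers summed to at most 0.27 FPKM, endothelial markers to at most 0.19, and fibroblast markers to 4.66 to 6.02 FPKM with shNC and 4.36 to 4.98 with PLEK2 shRNA. Of the 4 fibroblast markers only COL1A1 reached 1 FPKM in every library. COL1A2, COL3A1 and PDGFRB read at most 0.11 FPKM in any library.

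Promoters were read to see what the genes share outside their coding function. RefSeq sequence from 250 bases before to 50 bases after the gene start was at hand for 69 of the 78 genes, in 85 windows. The letters AAGATGGC, the core of the site of the zinc finger factor YY1, lay on either strand in 27.1% of these windows and in 2.89% of all 35116 promoter windows of the same length. The letters CCGGAAG, the core of ETS-family sites, GABPA (NRF2 of the mitochondrial literature) included, lay in 38.8% of the windows and in 10.3% of all. Among windows of genes that passed the filter the shares were 4.63% and 16.4%. One or both motifs were found in 43 of the 69 genes and both in 8. The palindromic NRF1 motif was found in 11.8% of the windows against 9.45% of those of tested genes, the E-box CACGTG in 10.6% against 9.26% and the SP-family GC box GGGCGG in 60.0% against 66.4%. A match is a run of letters and was not tested as a binding site. The windows below are shown because they belong to genes at either end of the range of fold changes and hold the first or the second of these motifs, in capitals (RefSeq, GRCh38.p14, each 30 bases and read 5′ to 3′ on the strand of the gene).
MRPL42, plus strand, chr12:93467511-93467540, YY1 letters: aggattgaaacAAGATGGCgggttcgtggt
MRPS34, minus strand, chr16:1773135-1773164, ETS letters: tCTTCCGGtgaCTTCCGGccggaccgctga
MRPL54, plus strand, chr19:3762650-3762679, ETS letters: gccactgacgtCTTCCGGaaacgtgcactt
Counted from the RefSeq start, the motif of MRPL42 began 8 bases after it, and in MRPS34 and MRPL54 the motif nearest the start began 19 and 21 bases before it. Among the 5 genes of highest fold change, MRPL32 also held the YY1 letters and MRPS31 the ETS letters, so the windows shown are examples only. Genes with the YY1 letters had a median log2 fold change of -0.042 and those without them of -0.022. With and without the ETS letters the medians were 0.00 and -0.03.

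A coding gene starting within 1000 bases upstream on the opposite strand was annotated for 17 of the 78 genes (21.8%; 11.1% of 12459 tested genes with a position, GENCODE 44). MRPL46 and MRPS11 are each other's neighbour on chromosome 15, with starts 63 bases apart. MRPL46, a large subunit protein, read 19.0, 19.3 and 21.5 CPM with shNC, against 17.9, 17.1 and 18.7 with PLEK2 shRNA. MRPS11, a small subunit protein with a bacterial counterpart, read 39.2, 44.7 and 45.9 CPM with shNC, against 39.2, 49.4 and 47.9 with PLEK2 shRNA. All MRPL46 values with PLEK2 shRNA lay below those with shNC, while the MRPS11 values overlapped. The log2 fold changes of this pair were -0.16 and 0.07, neither passing the test.

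Levels between genes were compared as FPKM, which accounts for transcript length. The mean of the 6 libraries ran from 8.93 FPKM for MRPS36 to 189.4 for MRPL12, a 21.2-fold range, with a median of 53.2 against 10.2 over all tested genes. Between 20 and 100 FPKM lay 62 of the 78 genes, above 100 lay 9 and below 20 lay 7, and 75 genes stood above the median of all tested genes. The median was 53.9 FPKM for MRPL symbols and 50.2 for MRPS symbols.

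The 5 highest genes all encode large subunit proteins. MRPL12, the protein of the stalk that recruits translation factors, read 179, 198 and 212 FPKM with shNC, against 174, 187 and 185 with PLEK2 shRNA. MRPL51 followed at 156, 138 and 160 FPKM with shNC, against 180, 147 and 153 with PLEK2 shRNA. In the first PLEK2 shRNA library MRPL51 stood above MRPL12, and in the other 5 below it. MRPL3, the counterpart of bacterial L3 near the peptidyl transferase centre, read 131, 118 and 120 FPKM with shNC, against 150, 124 and 136 with PLEK2 shRNA. MRPL4 averaged 124.9 FPKM and MRPL37, a protein without a bacterial counterpart, 124.7. MRPL51 stood above MRPL3 in all 6 libraries, although their ranges overlapped. The libraries of MRPL3, MRPL4 and MRPL37 overlapped, and the order of these genes is not resolved.

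At the other end stood MRPS36, MRPS14 and MRPL22. MRPS36 read 8.65, 7.22 and 9.21 FPKM with shNC, against 11.96, 7.58 and 8.96 with PLEK2 shRNA. MRPS14, the counterpart of bacterial S14 in the small subunit, averaged 8.94 FPKM and MRPL22, that of bacterial L22 at the exit tunnel, 9.48 FPKM. The libraries of all 3 overlapped, so their order is not resolved. The plot of levels shows the 6 libraries of each gene lying close together compared with the distance from the lowest to the highest gene.

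**Figure D1:**
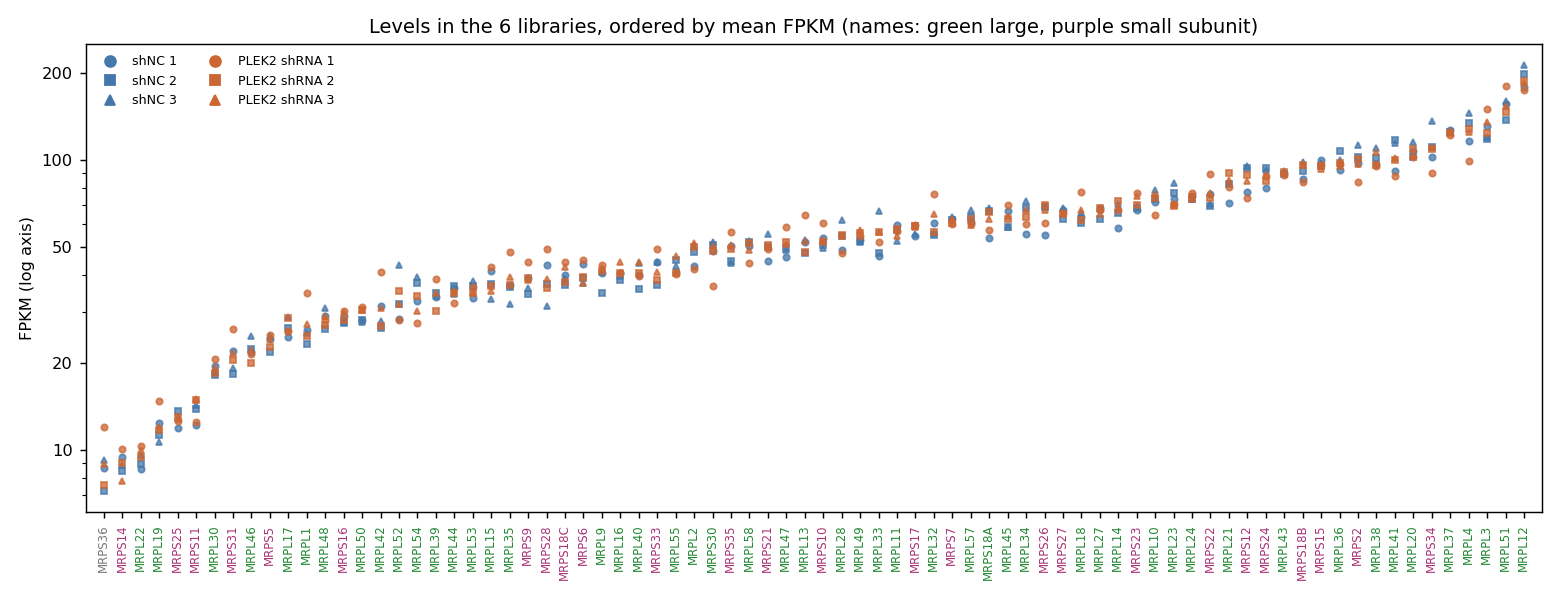
FPKM (log axis) of the 78 genes in each of the 6 libraries, ordered by the mean, with blue for shNC and orange for PLEK2 shRNA and the marker shape giving the replicate number. Means ran from 8.93 FPKM for MRPS36 to 189.4 for MRPL12, and 62 genes lay between 20 and 100.

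In cells with PLEK2 shRNA the mitochondrial ribosomal protein messages stood close to their levels in shNC cells. Summed over the 78 genes they made up 5132, 5137 and 5337 CPM with shNC, against 5121, 5133 and 5172 CPM with PLEK2 shRNA. The ranges overlapped, with means of 5202 ± 117 and 5142 ± 26.7 CPM (SD, n = 3). No gene differed by 1.5-fold or more either way, which 1.13% of all tested genes did. In these bulk libraries, fewer cells with a message and less of it per cell cannot be told apart.

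In edgeR's quasi-likelihood test with Benjamini-Hochberg adjustment at 0.05, no member was called, beside 0.0% of 12959 genes. At an unadjusted p under 0.05 there were 0 members beside 3.09% of all genes. DESeq2 called 0 members at the adjusted threshold (0.0926% of all genes) and 0 at the unadjusted one (2.27%). With the replicate block edgeR called 110 genes (0.849%) and DESeq2 57 (0.44%), and 0 of these were members. The 95% interval of the log2 fold change lay within 1.5-fold either way for 77 of the 78 genes, and for 75.7% of all tested genes. The exception was MRPL54, with an interval from -0.61 to 0.01, and with the block all 78 were within the bound (85.5% of all).

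The median log2 fold change of the 78 genes was -0.020, with quartiles of -0.07 and 0.07, beside a median of -0.0021 and quartiles of -0.10 and 0.09 over all genes. Values above 0 were fitted for 35 of 78 genes (49.4% of all). Within the same-numbered pairs of libraries the medians were 0.0037, 0.015 and -0.050. The subunits lay close to each other, with medians of -0.024 over the 51 large subunit genes and -0.0033 over the 26 small subunit genes. Genes with a bacterial counterpart had a median of 0.0031 (45 genes) and mitochondria-specific ones of -0.044 (30 genes). MRPL55, MRPS18A and MRPS36 were placed in neither class, and MRPS18B, a paralog of bacterial S18, was counted as mitochondria-specific. None of these medians carries a test.

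**Figure D2:**
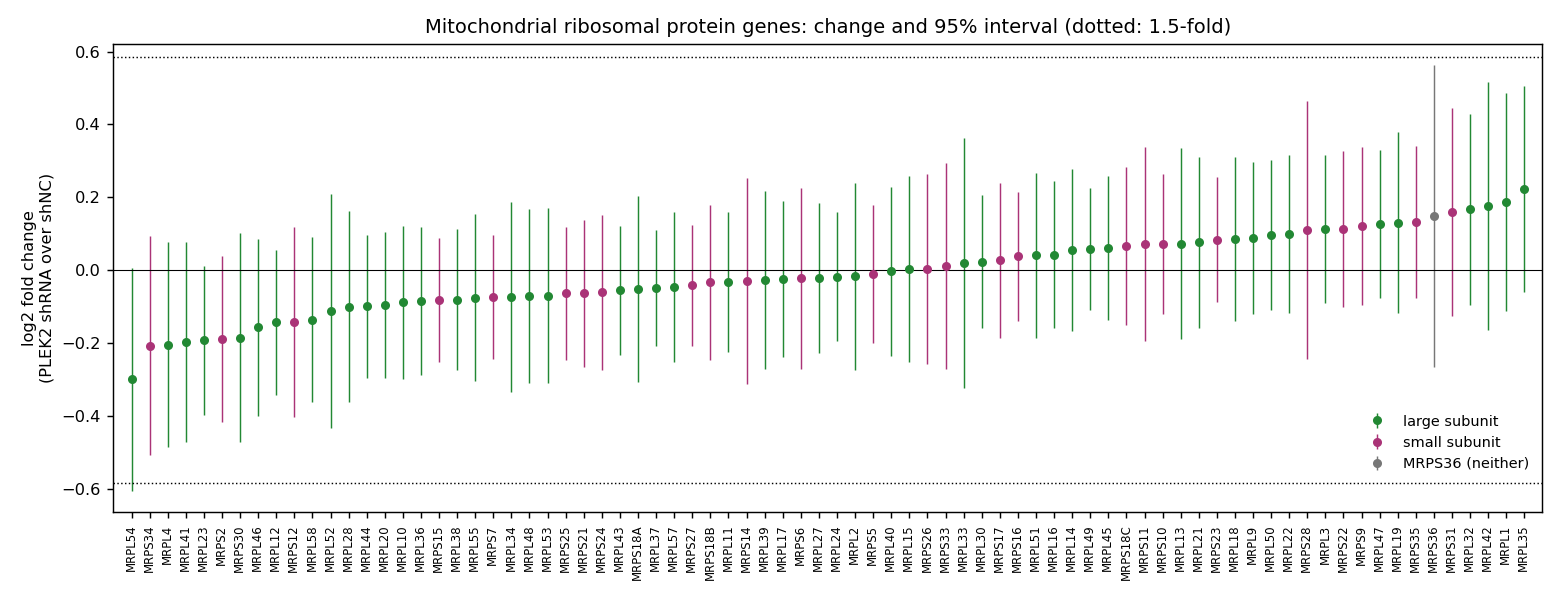
Log2 fold change (PLEK2 shRNA over shNC) of the 78 genes in order, with the 95% interval from edgeR as a bar and dotted lines at 1.5-fold. The points run from -0.30 for MRPL54 to 0.22 for MRPL35, every interval includes 0, and 77 of 78 intervals lie between the dotted lines.

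The libraries of the groups did not overlap for 6 of the 78 genes (7.69%), beside 9.21% of all tested genes. MRPL23, MRPL37, MRPL46, MRPS7 and MRPS15 were lower in every PLEK2 shRNA library (5 genes, beside 5.12% of all) and MRPL50 was higher (4.08% of all). MRPL50, a mitochondria-specific large subunit protein, read 25.1, 25.0 and 24.5 CPM with shNC, against 26.7, 26.6 and 26.5 with PLEK2 shRNA. MRPS7, the counterpart of bacterial S7 that nucleates the head of the small subunit, read 80.9, 80.0 and 81.6 CPM with shNC, against 74.6, 77.1 and 78.8 with PLEK2 shRNA. The fitted log2 fold changes of this pair were 0.10 ± 0.09 and -0.07 ± 0.07 (SE). Neither gene had an unadjusted p under 0.05. None of the 6 genes passed edgeR's test of the replicate number either.

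The 5 highest fold changes belonged to MRPL35, MRPL1, MRPL42, MRPL32 and MRPS31. MRPL35, whose product has a counterpart in bacterial L35, read 56.3, 52.0 and 48.8 CPM with shNC, against 72.5, 54.7 and 56.1 with PLEK2 shRNA. MRPL42, a mitochondria-specific protein, read 95.6, 79.8 and 84.0 CPM with shNC, against 121, 80.2 and 91.7 with PLEK2 shRNA. In both genes the first PLEK2 shRNA library was the highest of all 6 and the groups overlapped. The log2 fold changes were 0.22 ± 0.12 for MRPL35 and 0.18 ± 0.15 for MRPL42 (SE, n = 3 per group). Without the first PLEK2 shRNA library, but with the first shNC library kept, they were 0.08 and -0.0089. With the linear GC term described below they were 0.14 and 0.08. For MRPL35 the value was 0.29 without the first shNC library, and 0.14 with the block and without replicate 1. Within the same-numbered pairs the log2 ratios were 0.36, 0.07 and 0.20 for MRPL35 and 0.34, 0.0058 and 0.13 for MRPL42.

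MRPL1, the counterpart of the L1 stalk protein, read 32.1, 28.7 and 31.1 CPM with shNC, against 41.5, 30.3 and 32.8 with PLEK2 shRNA. MRPL32 had a log2 fold change of 0.17 ± 0.12 and MRPS31 of 0.16 ± 0.13. Without the first PLEK2 shRNA library, but with the first shNC library kept, the values of MRPL1, MRPL32 and MRPS31 were 0.04, 0.06 and 0.06. With all libraries they were 0.19, 0.17 and 0.16, and with the GC term 0.08, 0.12 and 0.09. Log2 ratios within the same-numbered pairs were 0.36, 0.08 and 0.08 for MRPL1 and 0.27, 0.02 and 0.18 for MRPL32. Those of MRPS31 were 0.20, 0.14 and 0.13. MRPL32 is matured by the mitochondrial m-AAA protease before it joins the large subunit. The adjusted p of each of these 5 was 0.968 by edgeR with Benjamini-Hochberg adjustment.

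The 5 lowest fold changes belonged to MRPL54, MRPS34, MRPL4, MRPL41 and MRPL23. MRPL54, a mitochondria-specific large subunit protein, read 15.8, 18.3 and 19.2 CPM with shNC, against 12.7, 16.3 and 14.3 with PLEK2 shRNA. MRPS34, a mitochondria-specific protein of the small subunit, read 90.6, 98.5 and 121 CPM with shNC, against 76.7, 95.7 and 96.2 with PLEK2 shRNA. Both overlapped between the groups, and their log2 fold changes were -0.30 ± 0.13 and -0.21 ± 0.13 (SE, n = 3 per group). With the GC term they were -0.20 and -0.08, and that of MRPS34 was -0.11 without the first PLEK2 shRNA library and -0.07 without the third shNC library. Log2 ratios within the same-numbered pairs were -0.31, -0.16 and -0.41 for MRPL54 and -0.24, -0.04 and -0.33 for MRPS34. Exons of MRPS34 share 325 bases with exons of EME2 on the other strand, and whether strand was used in counting is not stated in the sources used here.

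MRPL4, the counterpart of bacterial L4 at the exit tunnel, read 153, 178 and 190 CPM with shNC, against 126, 166 and 160 with PLEK2 shRNA. MRPL41 read 42.9, 54.8 and 53.4 CPM with shNC, against 39.4, 46.1 and 46.4 with PLEK2 shRNA. In both the first library of each group was its lowest. MRPL23 read 44.3, 47.0 and 50.7 CPM with shNC, against 40.8, 41.9 and 41.6 with PLEK2 shRNA, with no overlap. Its estimated count was not whole in any of the 6 libraries, as happens where a counting program divides reads between loci. The log2 fold changes were -0.20 ± 0.12 for MRPL4, -0.20 ± 0.12 for MRPL41 and -0.19 ± 0.09 for MRPL23, again with an adjusted p of 0.968 by edgeR with Benjamini-Hochberg adjustment. With the GC term they were -0.09, -0.05 and -0.06. Without the first PLEK2 shRNA library those of MRPL4 and MRPL41 were -0.09 and -0.12, and without the third shNC library that of MRPL4 was -0.13. Without the second shNC library that of MRPL41 was -0.12. Log2 ratios within the same-numbered pairs were -0.28, -0.10 and -0.24 for MRPL4 and -0.12, -0.25 and -0.20 for MRPL41. Those of MRPL23 were -0.12, -0.16 and -0.28.

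**Figure D3:**
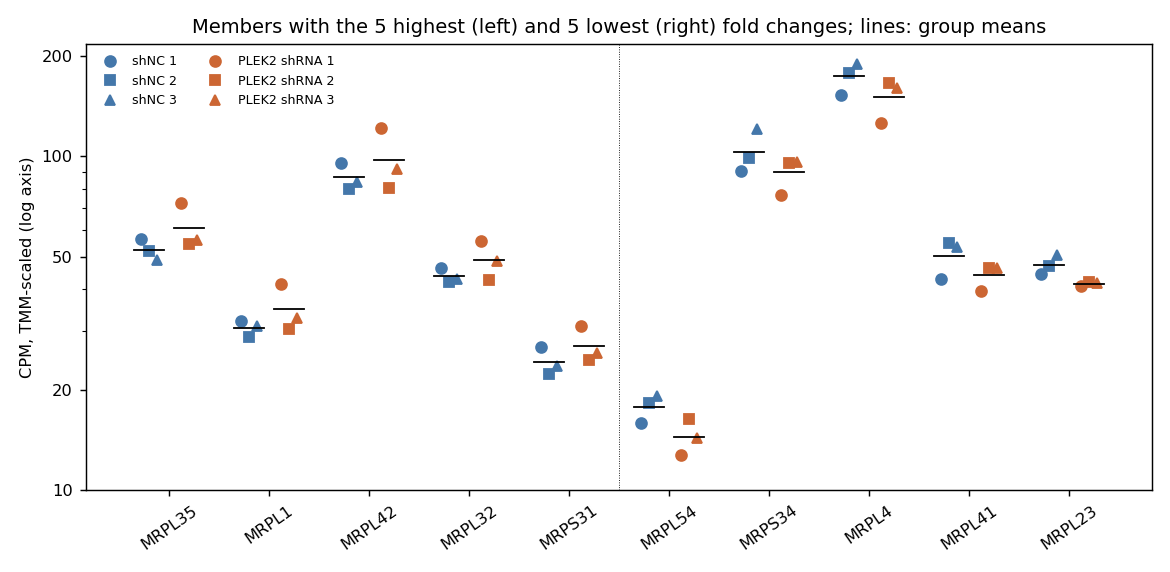
CPM (log axis) in each library of the 5 genes with the highest (left) and the 5 with the lowest (right) log2 fold change, with blue for shNC, orange for PLEK2 shRNA, marker shape for the replicate number and a line at each group mean. The groups overlap in 9 of the 10 genes and not in MRPL23. The circles of replicate 1 lie at the top of their group on the left and at the bottom on the right.

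Paralogs of bacterial S18 are encoded by 3 of the genes: MRPS18C takes the place of the bacterial protein, MRPS18B sits elsewhere in the small subunit and MRPS18A sits in the large one. MRPS18A read 57.9, 71.7 and 72.6 CPM with shNC, against 59.4, 70.0 and 65.5 with PLEK2 shRNA. MRPS18B read 123, 130 and 140 CPM with shNC, against 115, 135 and 134 with PLEK2 shRNA. MRPS18C read 38.8, 35.8 and 37.7 CPM with shNC, against 41.3, 36.1 and 40.4 with PLEK2 shRNA, and its count was not whole in any library. All 3 overlapped between the groups, and the log2 fold changes were -0.05, -0.03 and 0.07. On the FPKM scale the means of 6 libraries were 92.2 for MRPS18B, 62.5 for MRPS18A and 40.3 for MRPS18C, and no library of one gene reached the range of another. Exons of MRPS18C share 1296 bases with exons of ABRAXAS1 on the other strand, and those of MRPS18A share 705 with RSPH9. As for MRPS34, use of strand in counting is not stated, and its bearing on these levels was not tested.

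With the replicate block, 15 of the 78 genes (19.2%) had an unadjusted p under 0.05, beside 18.3% of all genes. MRPL1, MRPL19, MRPL32, MRPL35, MRPL42 and MRPS35 were on the higher side, 6 genes beside 7.89% of all. On the lower side were MRPL4, MRPL12, MRPL23, MRPL41, MRPL54, MRPS2, MRPS12, MRPS30 and MRPS34, 9 genes beside 10.4% of all. Adjusted p-values of these 15 lay between 0.0915 and 0.259 in edgeR's blocked test with Benjamini-Hochberg adjustment. DESeq2 with the block put 4 members (5.13%) under an unadjusted p of 0.05, beside 6.73% of all genes. Without replicate 1 in both groups the blocked edgeR count was 9, without replicate 2 it was 10 and without replicate 3 it was 7.

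The order of the fold changes followed the base composition of the transcripts. GC content, the share of G and C in the Ensembl canonical transcript, was 36.9% to 43.3% in the 6 genes on the higher side and 46.4% to 66.7% in the 9 on the lower side. Across the 78 genes, which share libraries and are not independent, the log2 fold change had a Pearson correlation of -0.75 and a Spearman correlation of -0.745 with GC content. Over 12478 tested genes with a GC value the correlations were -0.43 and -0.52. For the 37 subunits of respiratory complex I they were -0.73 and -0.80, so a slope this strong is not particular to the members. For the 77 tested cytosolic ribosomal protein genes they were -0.57 and -0.56. Within the same-numbered pairs of libraries the Pearson correlation of the 78 genes was -0.65, -0.47 and -0.62.

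In the 26 genes of lowest GC content (34.8% to 44.6%) the median log2 fold change was 0.10 and 22 lay above 0. In the middle 26 (45.0% to 51.9%) it was -0.03 with 10 above 0, and in the highest 26 (52.3% to 66.7%) it was -0.08 with 3 above 0. All tested genes in these GC ranges had medians of 0.08, 0.01 and -0.08. The libraries themselves differed in this respect: a gain of 10 points of GC went with a log2 deviation of -0.11, 0.10 and 0.13 in the shNC libraries and of -0.19, 0.04 and 0.03 in the PLEK2 shRNA libraries.

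A linear GC term for each library, chosen after the values were seen, was then added to the fit. The Pearson correlation of the 78 genes moved to -0.19 and the medians of the 3 GC classes to 0.029, -0.027 and -0.0049. Over all tested genes with a GC value the correlation was -0.017. The slopes were fitted to these same counts, members included, so smaller correlations were to be expected from the fit itself. Such a term would also take out a difference with the shRNA that follows GC content. With this term and the block, 3 of the 78 genes (3.85%) had an unadjusted p under 0.05, beside 9.79% of all genes. They were MRPL35, MRPL54 and MRPS30, each of which was among the 15 without the term. MRPS30, a mitochondria-specific protein of the large subunit, read 75.2, 78.8 and 80.4 CPM with shNC, against 55.1, 74.5 and 76.7 with PLEK2 shRNA. The first PLEK2 shRNA library was below the other 5, and the adjusted p of the gene was 0.340 with the term in edgeR's blocked test with Benjamini-Hochberg adjustment.

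**Figure D4:**
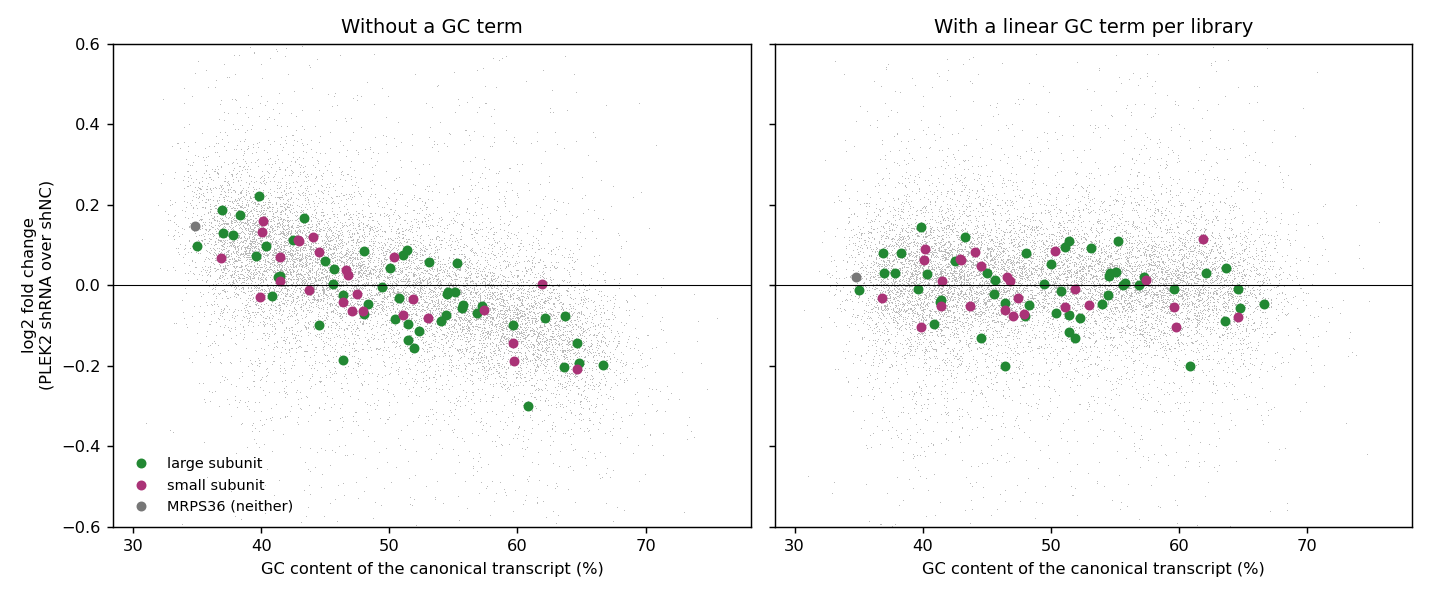
Log2 fold change (PLEK2 shRNA over shNC) against the GC content of the canonical transcript without (left) and with (right) a linear GC term for each library, for the 78 genes (coloured by subunit) over the other tested genes (grey dots, of 12478 in all; 125 beyond ±0.6 are not drawn in each panel). The coloured points slope down on the left, with a Pearson correlation of -0.75, and lie closer to level on the right, at -0.19.

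More of the genes differed among the replicate numbers than between the groups. In edgeR's test of the number with Benjamini-Hochberg adjustment, 15 of the 78 genes (19.2%) were called at 0.05, beside 28.4% of all genes. DESeq2 called 3 of the 78 (3.85%), beside 13.6%. In all 15 genes both replicate 1 libraries stood apart from the other 4, as in 3324 of the 3684 genes called over the whole table. They were higher for MRPL15, MRPL19, MRPL35, MRPL42 and MRPS28 and lower for MRPL2, MRPL4, MRPL28, MRPL34, MRPL41, MRPS11, MRPS12, MRPS18A, MRPS26 and MRPS34. The split was 5 higher to 10 lower in these genes and 2024 higher to 1660 lower over all 3684.

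MRPL42, MRPL4, MRPS34, MRPS12 and MRPL41 had the smallest p-values of this test. MRPS12, the counterpart of bacterial S12 at the decoding centre, read 68.7, 83.4 and 84.6 CPM with shNC, against 63.2, 77.7 and 73.7 with PLEK2 shRNA. Replicate 1 was the lowest library of both groups, and the adjusted p for the number was 0.0138 by edgeR with Benjamini-Hochberg adjustment. MRPS26, a mitochondria-specific small subunit protein, read 50.1, 62.4 and 62.2 CPM with shNC, against 52.8, 62.8 and 59.6 with PLEK2 shRNA, which gave a log2 fold change of 0.0040, and the adjusted p for the number was 0.0230 by the same edgeR test with Benjamini-Hochberg adjustment.

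The genes higher in replicate 1 had a median GC content of 39.9% and those lower of 59.6%, beside 39.5% and 59.9% over all genes that passed. With the linear GC term 0 of the 78 genes passed edgeR's test of the number (5.29% of all genes). Of the 15 genes, 7 were also among the 15 with an unadjusted p under 0.05 for the shRNA in the blocked fit, beside 1142 of the 3684 genes called over the whole table. Within groups the members varied less than genes at large: the median SD of log2 CPM was 0.10 against 0.15 over all tested genes, with median counts of 843 and 463 per library. This SD was also 0.10 for cytosolic ribosomal protein genes and for mitoribosome assembly factors, and 0.13 for complex I subunits.

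**Figure D5:**
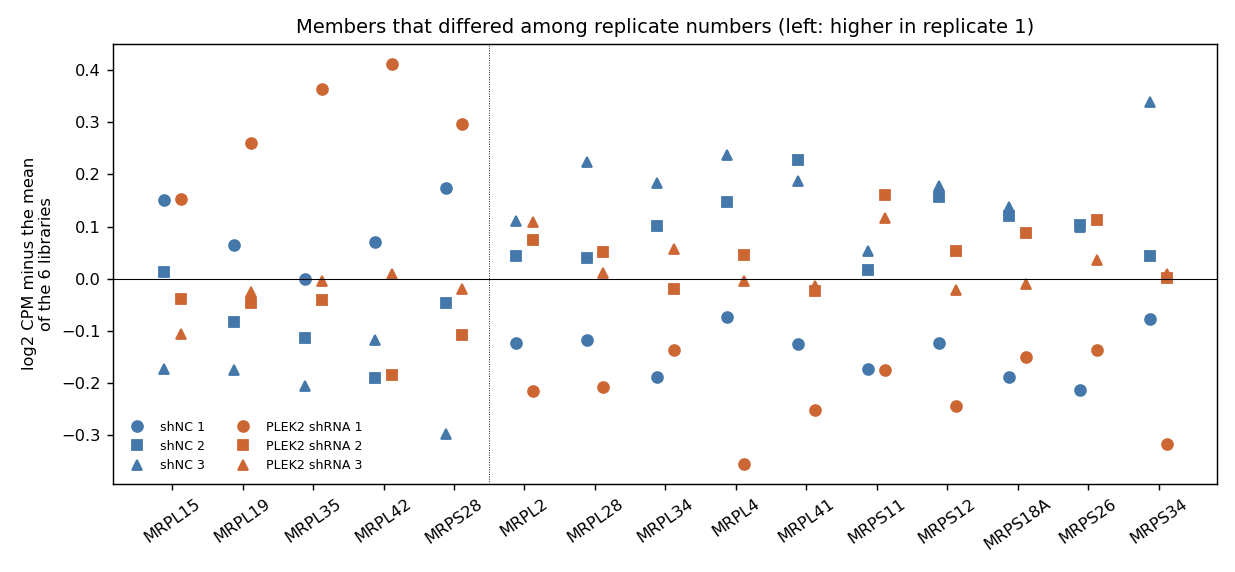
Log2 CPM minus the mean of the 6 libraries for the 15 genes that differed among replicate numbers, with blue for shNC, orange for PLEK2 shRNA and circles for replicate 1. Both circles lie above the other 4 libraries in the 5 genes on the left and below them in the 10 genes on the right.

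Other genes of mitochondrial gene expression were read from lists by role, and edgeR's test without the block called 0 of them at an adjusted p of 0.05 (0.0% of all genes). Of the mitoribosomal proteins with other symbols, 5 were in the table, with a median log2 fold change of -0.0041. DAP3, the small subunit GTPase also known as MRPS29, read 120, 124 and 118 CPM with shNC, against 117, 121 and 122 with PLEK2 shRNA, which is a log2 fold change of -0.0041 ± 0.07 (SE). The 24 assembly factors had a median of 0.0028, the 11 translation factors of 0.065, and the 12 genes of mitochondrial transcription and mRNA of 0.040. Of 8 tested regulators of nuclear mitochondrial genes, 4 were above 0. The genes of the mitochondrial genome were not analysed here.

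With the block, POLRMT was the only gene of these lists to pass the adjusted threshold, which 0.849% of all genes did. POLRMT, the RNA polymerase of mitochondria, read 235, 317 and 331 CPM with shNC, against 194, 271 and 278 with PLEK2 shRNA. The groups overlapped, while each PLEK2 shRNA library lay below the shNC library of its number. The log2 fold change was -0.25 ± 0.05 (SE) with an adjusted p of 0.0460 in edgeR's blocked test with Benjamini-Hochberg adjustment. Its transcript has a GC content of 66.1%, and with the linear GC term the adjusted p was 0.492. TFAM, which packages mitochondrial DNA and starts its transcription, read 58.2, 45.3 and 41.1 CPM with shNC, against 66.5, 50.9 and 53.4 with PLEK2 shRNA, with an adjusted p of 0.0907 in the same blocked edgeR test with Benjamini-Hochberg adjustment. The TFAM transcript has a GC content of 36.0%, and with the linear GC term in that edgeR test the adjusted p was 0.483.

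Other complexes were set beside the mitochondrial ribosome for comparison. For the 77 tested cytosolic ribosomal protein genes the median log2 fold change was -0.05 with 14 above 0, and for the 37 complex I subunits -0.03 with 16 above 0. Neither list had a gene past the adjusted threshold with or without the block in edgeR. The replicate number was called for 25 cytosolic ribosomal protein genes (32.5%) and 11 complex I subunits (29.7%), beside the 28.4% of all genes. Differences between the lists were not tested.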

How the data were processed

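RNA-seq of 6 HCT116 libraries was analysed, with groups and replicate numbers taken from the submitters' labels. The authors deposited estimated counts per gene, unnormalized, and beside them FPKM, a unit read from the values because the header names none. Single-end reads of 50 bases were processed, per the submitters' processing notes, with HISAT2 2.0.4, Bowtie2 2.2.5, RSEM 1.2.12 and DESeq2 1.4.5. The notes name GRCm38.p6, a mouse build, whereas all 17047 gene identifiers carry the human taxon number; positions and GC content here come from GENCODE 44 on GRCh38, which may differ from the annotation used for counting. Libraries were amplified by PCR, whose yield can depend on GC content, and its part in the values was not tested.

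Counts were rounded and tested with edgeR 4.0.16 (TMM factors 0.984 to 1.02, filterByExpr defaults, quasi-likelihood F test, Benjamini-Hochberg over 12959 genes). Standard errors were the log2 fold change over the square root of F. The replicate test took both replicate coefficients of a fit with group. DESeq2 1.42.0 and limma 3.58.1 on log2(FPKM + 1) or log2(FPKM + 0.1) were alternatives, as were other scalings, other filters, the replicate block and leaving out libraries, all under R 4.3.3. The pairing rests on the shared numbers and on correlations over genes whose mean log2 CPM exceeded 3, since no shared day or batch is stated. The edgeR fit was tested on simulated data. The members and the gene lists were chosen with earlier results of these data known.

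Genes were named by rule: PLEK2, the 5 highest and 5 lowest log2 fold changes, the 5 highest and 3 lowest mean FPKM values, the MRPS18 genes, the 5 smallest p-values for the replicate number, and list genes past the adjusted threshold. MRPL46, MRPL50, MRPS7, MRPS11, MRPS26, MRPS30, DAP3 and TFAM were singled out after their values were seen. The sequence windows matched the hg38 genome, and a further window is not reported here.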

Additional observations from a re-analysis of the deposited data

How the results depend on the processing

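No member of the set was called at an adjusted p of 0.05 for the shRNA under any alternative run. At an unadjusted p under 0.05 the count of members, 0 without a block, was 15 with the replicate block, 18 with library totals and the block, 4 with DESeq2 and the block, 3 with a linear GC term and the block, and 1 with limma on either FPKM scale. Leaving out 1 library it ran from 0 to 5, with 5 without the first shNC library and 1 without the second PLEK2 shRNA library, and leaving out a replicate number with the block from 7 to 10. The median log2 fold change of the 78 genes, -0.020, was 0.0147 with limma on log2(FPKM + 0.1) and 0.0145 on log2(FPKM + 1). With library totals it was 0.0113, and 0.0101 with the block added. This median ran from -0.0318 to 0.0175 (-0.025 to 0.0162) when 1 library (in brackets here and below, 1 replicate number with the block) was left out. That of the MRPL symbols was 0.0088 with library totals, 0.0093 with the block added, 0.012 and 0.0118 with limma on log2(FPKM + 0.1) and log2(FPKM + 1), and it ran from -0.0454 to 0.0142 (-0.0346 to 0.0007) when libraries were left out. The count of members that differed among replicate numbers was 3 with DESeq2, 0 with the GC term and from 2 to 20 when libraries were left out, with 2 without the second PLEK2 shRNA library, 5 without the second shNC library and 9 without the first PLEK2 shRNA library.

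Other pathway genes past the adjusted threshold numbered 0 without the block, 1 with it, 1 with DESeq2 and the block, 3 with library totals and the block, and from 0 to 5 when a replicate number was left out, with 5 without replicate 1 and 1 without replicate 3. PLEK2 passed with DESeq2 (-1.53), with the block (-1.57), with the block and DESeq2 (-1.60), library totals (-1.54) or the GC term (-1.52), and ran from -1.7402 to -1.2614 (-1.7787 to -1.2051) when libraries were left out, passing there without the first PLEK2 shRNA library (-1.2614) and with each replicate number left out (-1.7443 without replicate 3). Over 22 other named genes and all their alternatives, 462 values in all, 25 had the other sign and 4, all of POLRMT, passed the threshold where the value without a block did not. With the GC term alone and with the block, MRPL37 was 0.0062 and 0.0077, MRPS18A 0.0205 and 0.0209, and MRPS18C -0.0304 and -0.0303. MRPS14 was 0.002 with library totals, and MRPS18B was 0.0009 with limma on both FPKM scales. The remaining sign changes came with libraries left out, where MRPL42 ran from -0.0089 to 0.3003 (0.0733 to 0.2484), MRPL51 ran from -0.0372 to 0.0913 (-0.0045 to 0.1184), MRPS14 ran from -0.1125 to 0.0588 (-0.0704 to 0.06), MRPS18A ran from -0.1382 to 0.0144 (-0.0849 to 0.0118), MRPS18B ran from -0.074 to 0.0402 (-0.0694 to 0.0033) and MRPS36 from -0.0408 to 0.2807 (-0.0051 to 0.2585). The causes were not tested. The replicate block changed no call of a member. With 3 libraries a group and no block, only the interval of MRPL54 reached beyond 1.5-fold. Without the block edgeR called 0 of 12959 genes, although 147 had a fitted fold of at least 1.5 either way, of which 0 were members. An absent call therefore does not show an absent difference, whether below or above 1.5-fold.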

Other observations

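The readthrough gene URGCP-MRPS24, which joins MRPS24 to its neighbour, is outside the rule and did not pass the filter on low counts. Its estimated counts were 0.0, 1.62 and 8.27 with shNC, against 0.0, 0.0 and 3.55 with PLEK2 shRNA. Estimated counts were not whole in at least 1 library for 12 of the 78 mitochondrial ribosomal protein genes and in every library for 5, MRPL19, MRPL23, MRPS18C, MRPS22 and MRPS25. Exons of 7 of the 78 genes (8.97%; 9.37% of 12459 tested genes) overlap exons of a coding gene on the other strand.

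Among the assembly factors, GTPBP10, a GTPase of the large subunit, read 39.4, 35.6 and 33.1 CPM with shNC, against 47.9, 39.2 and 36.6 with PLEK2 shRNA. METTL17, which acts on the small subunit, read 44.5, 43.1 and 48.2 CPM with shNC, against 38.9, 39.8 and 43.9 with PLEK2 shRNA. Both overlapped between the groups, and in edgeR's blocked test with Benjamini-Hochberg adjustment their adjusted p-values were 0.167 and 0.240. MTERF3, a repressor of mitochondrial transcription, read 50.2, 43.8 and 48.5 CPM with shNC, against 64.7, 56.0 and 53.7 with PLEK2 shRNA, without overlap, and its adjusted p in that test was 0.0600. ESRRA, a nuclear receptor of mitochondrial gene programmes, read 46.9, 51.2 and 58.5 CPM with shNC, against 32.5, 47.3 and 46.0 with PLEK2 shRNA, with an adjusted p of 0.0695 in the same edgeR test with Benjamini-Hochberg adjustment. With the linear GC term in that edgeR test, the Benjamini-Hochberg adjusted p was 0.726 for GTPBP10 and 0.548 for METTL17. For MTERF3 and ESRRA it was 0.253 and 0.386 in the same edgeR test. These 4 genes were chosen after their values were seen.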
